A study of Mus musculus with 20 samples.

Results

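Meg3 is a long noncoding RNA transcribed from the maternal chromosome, and in this series it had the highest count of any gene in most libraries. The account below covers Meg3 together with 9 other genes that are expressed mainly from 1 parental copy: Rian, Mirg, Dlk1, Peg3, Ndn, Nnat, Impact, Zdbf2 and Snrpn. They are 10 of the 12988 genes in the count table, and all 10 were present. Meg3 was chosen for its abundance, so its level is given as a description; the rule itself names no difference between groups and no relation between genes.

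Tissue came from the bed nucleus of the stria terminalis, anterodorsal part, which lies in the forebrain and is linked to stress responses and anxiety. There were 4 groups with 15 mice each: female controls, females exposed to chronic variable mild stress, male controls, and males exposed to the same stress. Stress lasted 6 weeks from an age of 7 to 9 weeks, and the stressed mice were sampled 1 hour after wet bedding, their last stressor. All mice, controls included, were anesthetized with ketamine before dissection, and the labels used here name no strain, transgene or mutation. Each of the 20 libraries, 5 in every group, pooled the tissue of 3 mice and is an average over them.

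Genomic imprinting marks a gene during egg or sperm formation, mainly by DNA methylation at a control region, and the mark decides which parental copy is later transcribed. Many imprinted genes are strongly expressed in the brain, where they are studied for roles in growth, feeding, maternal care and social behaviour. On mouse chromosome 12 the Dlk1-Dio3 domain joins both kinds: the maternal copy gives the noncoding RNAs Meg3, Rian and Mirg, which are thought to form parts of 1 long transcription unit, and the paternal copy gives the protein-coding genes Dlk1, Rtl1 and Dio3. The counts used here add both parental copies together, so they measure the amount of RNA and not its parental origin.

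The genes lie as follows on the mouse genome build GRCm38, with the annotation of GENCODE M21. Dlk1, which encodes a transmembrane protein related to Notch ligands, spans chr12:109452823-109463336 on the plus strand. Downstream on the same strand come Meg3 at chr12:109541001-109571726, Rian, a host of small nucleolar RNAs, at chr12:109603940-109661716, and Mirg, a host of microRNAs, at chr12:109729764-109749460. Peg3, a zinc-finger protein gene known for its part in maternal behaviour, lies at chr7:6703892-6730431 on the minus strand. Ndn (necdin, a neuronal growth suppressor) at chr7:62346569-62350262 on the plus strand and Snrpn (a splicing protein) at chr7:59982495-60140219 on the minus strand belong to the region whose human counterpart is lost in Prader-Willi syndrome. Nnat (neuronatin, a small membrane protein of developing neurons) spans chr2:157560078-157562522 on the plus strand, inside the gene Blcap of the opposite strand. Zdbf2, a zinc-finger gene, spans chr1:63273265-63314576 on the plus strand. Impact encodes an inhibitor of the translation regulator Gcn2. Of the genes outside the Dlk1-Dio3 domain, all 6 are expressed from the paternal copy. Snrpn shares its strand and position with Snurf and Gm38393, and neither of these is in the count table. Mirg overlaps the microRNA gene Mir3072 on its own strand, and Mir3072 is in the count table. How reads of overlapping genes were counted is not given. Reads of Snrpn and Snurf thus cannot be told apart, and the counts of Snrpn and Mirg may not show their full levels.

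The 3 noncoding RNAs of chromosome 12 carry microRNAs within their span: the RefSeq table places 3 mature microRNAs in Meg3, 6 in Rian and 26 in Mirg on GRCm38.p6. Mature microRNAs were not measured in these libraries, and the sequences are shown to say what the host transcripts contain. Capitals mark the seed (bases 2 to 8 from the 5′ end), the stretch that pairs with target messages. The first of the lines below is from Meg3, the second from Rian and the other 4 from Mirg; the last pair, mmu-miR-453 and mmu-miR-496a-5p, have the same seed, and the other 4 seeds differ.
mmu-miR-770-5p: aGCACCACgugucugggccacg
mmu-miR-370-3p: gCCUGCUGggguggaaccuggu
mmu-miR-134-5p: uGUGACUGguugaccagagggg
mmu-miR-410-3p: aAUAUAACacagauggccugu
mmu-miR-453: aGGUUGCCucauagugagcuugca
mmu-miR-496a-5p: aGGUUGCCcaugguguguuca

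Start regions were read from RefSeq for 9 of the 10 genes, in 14 windows of 250 bases before and 50 after an annotated start. The motifs searched on both strands were TGACGTCA, the palindromic cAMP response element bound by CREB, GCCATNTT, bound by YY1, and the CTCF core motif. TGACGTCA was found at 1 start each of Meg3, Peg3 and Zdbf2, while 1.79% of 32851 such windows of all genes hold it. The other motifs matched none of the 14 windows, against 6.05% and 0.122% of all windows. Only these letters were searched in these windows, and a match describes the sequence, not binding. The 250 bases before those 3 starts are printed 5′ to 3′ on the strand of the gene, with the motif in capitals; Meg3 is at chr12:109540746-109540995 (plus), Peg3 at chr7:6730420-6730669 (minus) and Zdbf2 at chr1:63273019-63273268 (plus).
Meg3: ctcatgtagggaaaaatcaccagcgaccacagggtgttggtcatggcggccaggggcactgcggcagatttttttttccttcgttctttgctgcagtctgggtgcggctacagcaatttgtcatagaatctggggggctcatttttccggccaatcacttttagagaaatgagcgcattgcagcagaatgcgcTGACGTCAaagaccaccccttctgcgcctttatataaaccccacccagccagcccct
Peg3: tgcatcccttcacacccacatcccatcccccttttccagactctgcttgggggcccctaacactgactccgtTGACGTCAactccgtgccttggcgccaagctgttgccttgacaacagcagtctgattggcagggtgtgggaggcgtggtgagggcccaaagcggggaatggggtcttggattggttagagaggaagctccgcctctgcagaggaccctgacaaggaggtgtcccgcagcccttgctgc
Zdbf2: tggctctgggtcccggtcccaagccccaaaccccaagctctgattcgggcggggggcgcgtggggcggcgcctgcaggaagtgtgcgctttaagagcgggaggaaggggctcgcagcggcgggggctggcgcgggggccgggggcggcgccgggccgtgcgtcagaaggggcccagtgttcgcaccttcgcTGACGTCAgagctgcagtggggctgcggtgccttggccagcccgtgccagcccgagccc
The motif began 57 bases before the start in Meg3, 178 in Peg3 and 59 in Zdbf2. Those 300-base windows held 13, 13 and 38 CpG dinucleotides, against a median of 7 in all windows and 0 in the window of Rian.

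Library totals ranged from 2707881 to 33595388 counts. At these depths even those of the 10 genes with the fewest counts were detected: the lowest count of Snrpn in a library was 31, that of Mirg 58 and that of Meg3 13215. The markers of GABA neurons, the main neurons of this nucleus, were high, with Gad1 at 628 to 757, Gad2 at 983 to 1248 and Slc32a1 at 265 to 342 CPM (counts scaled by library total and TMM factor). All 14 markers of striatal neurons, the neighbouring tissue, were also present. In 6 libraries Rn45s, the ribosomal RNA precursor, stood at 2436 to 4123 CPM, while the other 14 had 541 to 1540 CPM; those 6 were female control replicates 4 and 5, female stressed replicates 4 and 5, and male stressed replicates 1 and 2, and none was a male control.

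Meg3 accounted for 0.348% to 1.05% of all counts of a library. It ranked first by count in 17 of 20 libraries, and in the other 3 Mbp, the myelin basic protein gene of oligodendrocytes, ranked first. Those were female control replicates 4 and 5 and male stressed replicate 2, where Meg3 had its worst rank, 4. The ratio of Meg3 to Mbp ranged from 0.758 to 3.13, a spread to which both genes contribute. By exon length Meg3 was less extreme: its median was 391 CPM per kilobase (kb) of annotated exon, rank 25 of the table at the median.

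Per kb of exon, the order of medians was Meg3 at 391 (196 to 574), Nnat at 206 (163 to 228), Impact at 106 (85.9 to 126), Ndn at 60.2 (44.2 to 71.7), Peg3 at 53.1 (46.1 to 64.2), Dlk1 at 45.5 (37.0 to 54.5), Rian at 42.8 (29.9 to 51.1), Zdbf2 at 16.0 (13.5 to 19.3), Snrpn at 4.54 (3.24 to 5.41) and Mirg at 3.91 (2.22 to 5.12), with the range over 20 libraries in brackets. Impact is the gene on chromosome 18. The ranges of neighbours did not overlap between Nnat and Impact, Impact and Ndn, Rian and Zdbf2, and Zdbf2 and Snrpn. Meg3 and Nnat overlapped, the 4 genes from Ndn to Rian overlapped with each other, and so did Snrpn and Mirg. These lengths pool all annotated isoforms, so the order depends on the annotation. The places of Snrpn and Mirg also depend on how reads shared with Snurf and with Mir3072 were counted, which is not given.

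The maternal RNAs of chromosome 12 thus lay far apart per kb although they share a strand and a domain. Ratios of counts, which are not per kb, show how these transcripts varied against each other between libraries. The median ratio was 8.78 for Meg3 to Rian (5.79 to 11.2) and 256 for Meg3 to Mirg (197 to 312). The ratio of Meg3 to Dlk1, the paternal gene of the domain, had a median of 26.2 and ranged from 13.8 to 35.4, wider than the other 2.

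**Figure D1:**
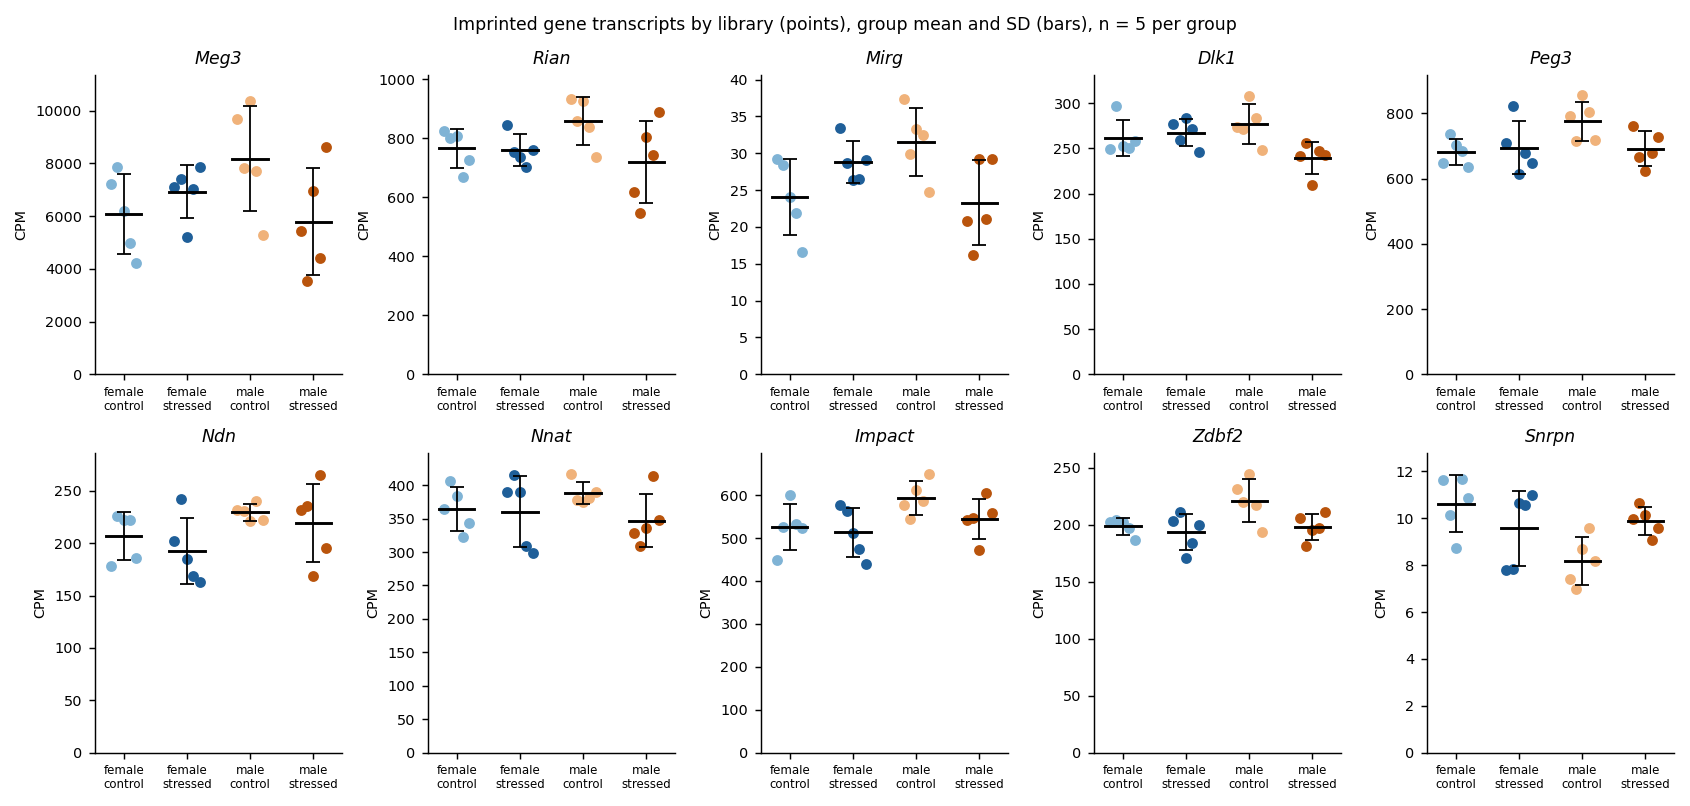
Level of each of the 10 genes in CPM (y axes from 0) in the 4 groups, with 1 point per library, horizontal lines for the group mean and bars for the SD (n = 5). Meg3 spread from 3550 to 10386 CPM and the groups overlapped for every gene shown.

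The 10 genes differed in how reproducible they were between pools of mice. The biological coefficient of variation, the spread between libraries of a group beyond counting noise, was 22.8% for Meg3, higher than for 98.96% of all genes tested. Mirg followed at 16.0% and then Ndn at 11.99% and Rian at 11.3%. At the other end were Zdbf2 at 7.08% and Dlk1 at 7.37%, below the common value of 8.83%. Meg3, with the most counts, was also the least even of the 10, and Dlk1, from the same domain, was among the most even.

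Of the 5 comparisons, stress in males had the most members at an unadjusted p under 0.05, 7 of 10 beside 15.5% of all genes, and none of the 10 passed after adjustment over all genes, where 1 gene (0.00770%) did. Nearly all had lower means in stressed males, and Snrpn had a higher one. In male controls Meg3 stood at 9682, 7818, 10386, 7727 and 5282 CPM (replicates 1 to 5), and in stressed males at 5419, 3550, 6948, 4427 and 8615 CPM. Male control replicate 5 lay within the range of the stressed males and stressed replicate 5 within that of the controls, so the groups overlapped. The group values were 8179 ± 1991 and 5792 ± 2021 CPM (SD, n = 5 each), and the fitted log2 fold change was −0.50 ± 0.21 (SE), with an unadjusted p of 0.0258 and an adjusted p of 0.243 (edgeR quasi-likelihood test, two-sided, Benjamini-Hochberg over 12988 genes). The difference did not pass the threshold of 0.05 after adjustment.

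Rian and Mirg, which follow Meg3 on its strand, had values of the same sign. Mirg was at 37.3, 29.9, 33.3, 32.5 and 24.7 CPM in male controls and at 20.8, 16.2, 29.2, 21.1 and 29.3 CPM in stressed males. In 4 of 5 control libraries Mirg lay above every stressed library, the exception being replicate 5. Its log2 fold change was −0.40 ± 0.15 (SE, edgeR adjusted p = 0.190). Rian stood at 932, 860.1, 928, 837 and 735 CPM in male controls and at 617, 546, 803, 743 and 889.9 CPM in stressed males, with a log2 fold change of −0.25 ± 0.10 (SE, adjusted p = 0.220). Stressed replicates 1 and 2 were the lowest of those libraries for Rian and Mirg alike, and both are among the 6 high in Rn45s.

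Dlk1, the paternal gene of the domain, had the smallest p among the 10 in males. Its levels were 274, 271, 308, 284 and 248 CPM in the male controls, against 241, 256, 209, 247 and 243 CPM under stress. Only control replicate 5 lay below the highest stressed library. The log2 fold change was −0.21 ± 0.06 (SE), with an unadjusted p of 0.00354 and an adjusted p of 0.123 (edgeR), smaller in size than that of Meg3 but with a smaller error.

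Outside chromosome 12, Zdbf2 was at 231, 220, 245, 217 and 194 CPM in male controls and at 206, 182, 195, 198 and 211 CPM under stress (log2 fold change −0.16 ± 0.06 SE, edgeR adjusted p = 0.220). Peg3 was at 791, 716, 855, 803 and 717 CPM in male controls and at 761, 666, 624, 680 and 729 CPM in stressed males, with a log2 fold change of −0.17 ± 0.07 (SE, adjusted p = 0.273). Both sets of libraries overlapped. Snrpn alone had a higher mean in stressed males, with 7.39, 7.00, 8.68, 9.60 and 8.19 CPM in the controls, 9.98, 10.7, 10.2, 9.06 and 9.57 CPM after stress, and a log2 fold change of 0.25 ± 0.11 (SE, adjusted p = 0.289). Snrpn control replicate 4 was the one control above the lowest stressed library.

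The other 3 genes had an unadjusted p above 0.05 in males. Nnat was at 417, 378, 375, 381 and 390.0 CPM in controls and at 328, 309.7, 337, 413 and 348 CPM under stress (log2 fold change −0.16). Impact was at 577, 546, 613, 586 and 649 CPM and at 543, 546, 473, 604 and 558 CPM (−0.12). Stressed replicate 4 was the highest stressed library for both, within the range of the controls. Ndn was even in male controls, with 221 to 241 CPM, and spread in stressed males, with 169 to 265 CPM, where the lowest was replicate 3 and the highest replicate 4 (log2 fold change −0.07).

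At an unadjusted p under 0.05 there were 6 lower and 1 higher, beside 6.76% of all genes lower and 8.71% higher (15.5% in either direction). The log2 fold change was negative for 9 of the 10, beside 6805 of all 12988 genes, and its median was −0.16, beside −0.007. Non-overlapping groups were seen for 0 of the 10, beside 1.16% of all genes lower and 3.13% higher. DESeq2, run as an alternative, also called 0 of the 10 and gave 7 at an unadjusted p under 0.05. In tissue RNA, fewer cells of a type and less RNA per cell cannot be told apart.

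Other measures moved with this comparison. The striatal marker score (mean log2 CPM of the 14 markers, centred over the libraries) was −0.515 to −0.167 in male controls and −0.011 to 0.567 in stressed males, so it did not overlap. With that score as a covariate the log2 fold changes were −0.42 for Meg3, −0.37 for Mirg, −0.19 for Rian, −0.15 for Dlk1 and −0.08 for Zdbf2. They were 0.01 for Peg3, 0.04 for Nnat, 0.09 for Impact, 0.20 for Ndn and −0.01 for Snrpn. The 1 of the 10 at an unadjusted p under 0.05 was Ndn. It was higher in stressed males in that fit (0.20 ± 0.09 SE) and lower without the score (−0.07). Of the 6 libraries high in Rn45s, 2 were stressed males and none was a male control. Without the 6, Meg3 had a log2 fold change of −0.30 ± 0.21 (SE), Mirg −0.25 and Rian −0.08, while Dlk1 had −0.25 ± 0.08 and Peg3 −0.20, and 2 of the 10 had an unadjusted p under 0.05. The part of tissue makeup or of Rn45s in these values was not tested.

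The comparison of the sexes in unstressed mice uses the same male control libraries and so is not independent of the one above. Meg3 was at 7231, 7852, 6212, 4975 and 4204 CPM in female controls, against the 5282 to 10386 CPM of male controls. The ranges overlapped, and the log2 fold change of males over females was 0.42 ± 0.21 (SE, edgeR adjusted p = 0.339). Snrpn, at 11.6, 10.1, 8.75, 11.7 and 10.9 CPM in female controls, had the smallest p of the 10, with a log2 fold change of −0.34 ± 0.12 (SE, unadjusted p = 0.00793, adjusted p = 0.161). Female replicate 3 was the one female library within the range of the males.

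Mirg (0.34), Peg3 (0.19), Impact (0.18) and Zdbf2 (0.15) also had an unadjusted p under 0.05 between control males and females, with higher values in males. Impact was at 577, 546, 613, 586 and 649 CPM in control males and at 448, 525, 601, 533 and 522 CPM in control females. Its female replicate 3 lay well above the other females and inside the male range. After adjustment 0 of the 10 were called, beside 0.747% of all genes (97), and at an unadjusted p under 0.05 there were 4 higher and 1 lower, beside 7.08% of all genes higher and 8.17% lower (15.3% in either direction). The groups of none of the 10 were apart, beside 1.95% of all genes higher and 2.02% lower. Their median log2 fold change was 0.16, beside 0.0002 over all genes, with 9 higher and 1 lower. With the oligodendrocyte marker score as a covariate Impact was called (log2 fold change 0.26 ± 0.07 SE, edgeR adjusted p = 0.0457), and with the striatal score it stood at −0.01. With that score Snrpn was at −0.12 and Peg3 at 0.04, and 0 of the 10 had an unadjusted p under 0.05. Without the 6 libraries high in Rn45s, Meg3 was at 0.21 and Mirg at 0.20, and 1 of the 10 had an unadjusted p under 0.05.

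For stress in females none of the 10 had an unadjusted p under 0.05. Meg3 was at 7118, 7392, 5213, 7038 and 7871 CPM in stressed females, 4 of them within the range of the female controls and the other just above it, and its log2 fold change was 0.18 ± 0.21 (SE, edgeR adjusted p = 0.875). Dlk1 stood at 249.7, 297, 253, 250.7 and 259 CPM in control females and at 277, 259, 284, 272 and 246 CPM under stress (log2 fold change 0.03), and the groups overlapped. Impact was at 576, 562, 513, 474 and 441 CPM in stressed females, and Ndn at 202, 242, 185, 169 and 163 CPM, with replicates 4 and 5, both high in Rn45s, the lowest for each. The smallest adjusted p was that of Mirg, 0.767, with a group level of 24.0 ± 5.16 CPM in control females and 28.8 ± 2.83 CPM under stress (SD, n = 5 each). Of the 10 genes 4 had positive and 6 negative values, with a median of −0.02, and 0 had an unadjusted p under 0.05, beside 7.51% of all genes (3.69% higher and 3.83% lower). Non-overlapping groups were again seen for 0 of the 10, beside 0.654% of all genes higher and 0.562% lower. With edgeR and with DESeq2, 0 of the 10 were called in females.

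Between stressed males and stressed females, Dlk1 was the one gene with an unadjusted p under 0.05. It was at 277, 259, 284, 272 and 246 CPM in stressed females against 209 to 256 CPM in stressed males, with 1 female library inside the male range. Its log2 fold change was −0.16 ± 0.06 (SE, edgeR unadjusted p = 0.0206, adjusted p = 0.649). After adjustment 0 of the 10 were called, beside 0.0770% of all genes, and 1 of 10 at an unadjusted p under 0.05 stands beside 7.06% of all genes (3.71% higher and 3.35% lower). The groups overlapped for all 10, while they were apart for 0.770% of all genes higher and 0.500% lower.

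Whether stress acted differently in the sexes was tested by the interaction, in which the stress effect of females is subtracted from that of males. The largest was −0.68 ± 0.29 on the log2 scale for Meg3 (SE, edgeR unadjusted p = 0.0301, adjusted p = 0.438), then −0.61 ± 0.21 for Mirg (unadjusted p = 0.00861, adjusted p = 0.348). Dlk1 (−0.24) and Snrpn (0.37) also had an unadjusted p under 0.05. The 3 lower and 1 higher at that level stand beside 10.4% of all genes (5.03% lower and 5.34% higher), and 0 of the 10 were called after adjustment, beside 0% of all genes. Without the 6 libraries high in Rn45s the interaction was −0.19 ± 0.31 for Meg3 and −0.35 ± 0.20 for Mirg (SE), and a fit with the striatal score gave 0.14 ± 0.14 (SE) for Snrpn. So no difference between the sexes in the response to stress was shown for these genes.

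**Figure D2:**
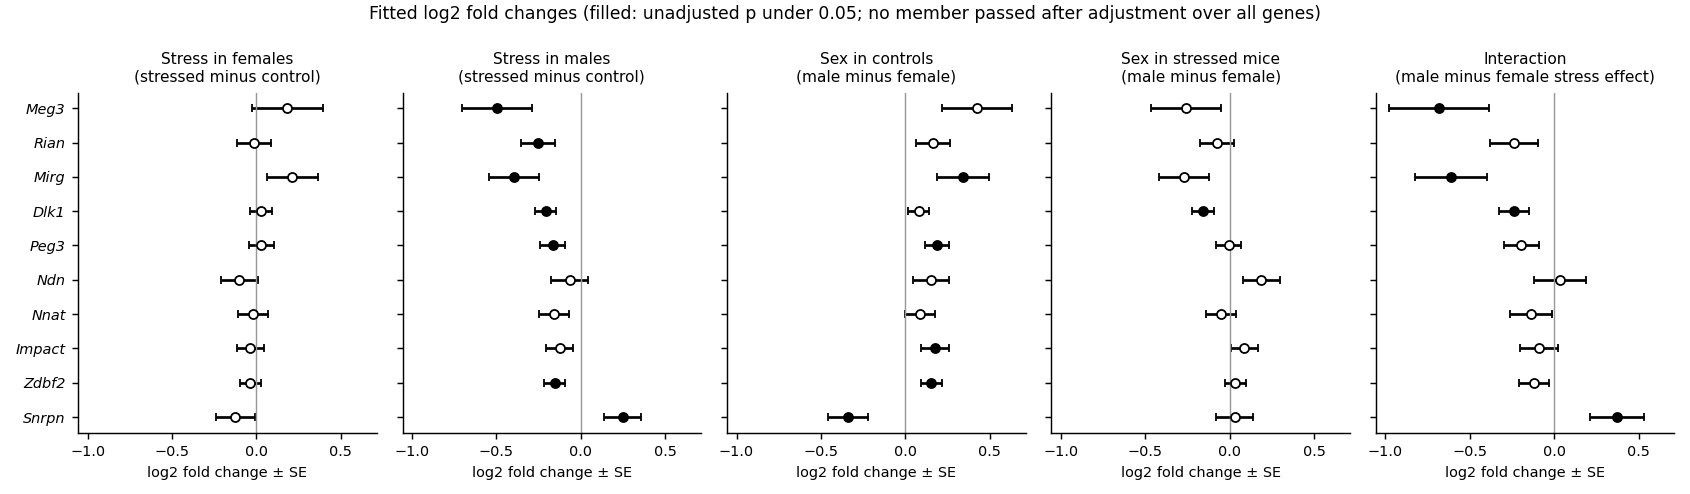
Fitted log2 fold change (x axes) of each gene in the 5 comparisons, with bars for the SE and filled points for an unadjusted p under 0.05. In males 9 of 10 points lie below 0 and Snrpn lies above, in control males against females the signs are the other way round for those 10, and no gene passed after adjustment over all genes.

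Of 49 other imprinted genes that were listed, 35 were in the table, and 0 were called in any of the 5 comparisons by edgeR. In stressed males 27 had a negative log2 fold change and 8 a positive one, with 9 lower and 0 higher at an unadjusted p under 0.05 and a median of −0.07. Over all genes 6805 of 12988 were negative, 6.76% were lower and 8.71% higher at that level, and the median was −0.007. Paternally expressed members made up 18 of the 35, with 14 negative and 4 positive, and maternally expressed ones 11, with 7 negative and 4 positive. The smallest adjusted p-values in males belonged to Peg10, a gene derived from a retroelement and needed in the placenta (log2 fold change −0.27 ± 0.08 SE, adjusted p = 0.109) and to H13, a signal peptide peptidase (−0.14, adjusted p = 0.127). In control males against control females 24 were higher and 11 lower, with a median of 0.10 and 7 higher and 1 lower at an unadjusted p under 0.05. Over all genes 6505 of 12988 were higher, 7.08% were higher and 8.17% lower at that level, and the median was 0.0002. In females, the leading values were those of Trappc9, a trafficking complex subunit (0.15 ± 0.05 SE, adjusted p = 0.570) and H13 (0.10, adjusted p = 0.658).

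Among 9 genes for the upkeep of imprints, Zfp57 was the one call, for sex in controls, where 0.747% of all genes were called. It encodes a zinc-finger protein that binds the methylated copy of imprint control regions. Zfp57 was at 20.7, 22.9, 24.2, 20.99 and 17.7 CPM in male controls, at 14.2, 15.4, 14.9, 12.8 and 10.8 CPM in female controls, at 14.1, 9.68, 13.1, 11.99 and 16.6 CPM in stressed males and at 15.0, 21.4, 13.8, 13.97 and 16.2 CPM in stressed females. Every male control library lay above every female control and every stressed male, separations that share the same male control libraries. Groups were apart for 1.95% of all genes with higher values in control males than in control females. They were apart for 1.16% with lower values in stressed than in control males. In controls Zfp57 was higher in males, with a log2 fold change of 0.59 ± 0.14 (SE, edgeR adjusted p = 0.0469). In stressed against control males the value was −0.67 ± 0.13 (adjusted p = 0.0806) and for the interaction −0.90 ± 0.19 (adjusted p = 0.136), neither of which passed.

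The Zfp57 call was close to the threshold. Leaving out 1 library lost it in 11 of 20 cases (female control replicates 1, 2, 4 and 5, male control replicates 1, 2, 3 and 4, female stressed replicate 1 and male stressed replicates 1 and 4), and its adjusted p over the 20 ran from 0.0199 to 0.144 while the log2 fold change stayed between 0.52 and 0.66. It was lost also with the replicate number as a block (log2 fold change 0.62, adjusted p = 0.0784), with the striatal score as a covariate (log2 fold change 0.41, adjusted p = 0.223) and without the 6 libraries high in Rn45s (0.50, adjusted p = 0.213). The value in males was called by DESeq2 (−0.68, adjusted p = 0.00408), by a fit of only those groups (adjusted p = 0.0211), with the oligodendrocyte score as a covariate (adjusted p = 0.0489), without female stressed replicate 2 (adjusted p = 0.0193) and without male stressed replicate 5 (adjusted p = 0.0348). The interaction of Zfp57 was called by DESeq2 (−0.92, adjusted p = 0.00776). In stressed males against stressed females the leading listed genes were H13 (−0.10, edgeR adjusted p = 0.649), Ube3a, a ubiquitin ligase gene expressed from the maternal copy in neurons (0.14, adjusted p = 0.649), and Zfp57 (−0.31, adjusted p = 0.662). For the interaction H13 (−0.24, adjusted p = 0.261) and Magel2, a neighbour of Ndn (−0.40, adjusted p = 0.379), followed Zfp57. The other maintenance gene with a leading value was Arid4a, a chromatin-binding protein gene, at 0.15 ± 0.05 in females (SE, adjusted p = 0.570).

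Across the 20 libraries some of the 10 genes varied together. How many pairs of all genes would pass was not computed, so the count below is not shown to be particular to these genes. Of 45 pairs, 18 had a correlation of log2 CPM that passed after adjustment (two-sided permutation test with 100000 permutations, Benjamini-Hochberg over 45 pairs), 14 positive and 4 negative. The 3 maternal RNAs of chromosome 12 formed the tightest group. Meg3 and Mirg had r = 0.92 (Spearman rho 0.85, adjusted permutation p = 0.000225 for both measures), and r was 0.87 without the 2 libraries farthest from the median of Meg3. Meg3 and Rian had r = 0.83 (rho 0.81, adjusted permutation p = 0.0003) and Rian and Mirg r = 0.83 (rho 0.89, adjusted permutation p = 0.000225). With each library taken as its deviation from the group mean these 3 were 0.90, 0.80 and 0.84. Within single groups, which have 5 libraries and for which no value is given, r was positive for these 3 pairs and lowest in stressed females for both pairs with Meg3.

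Dlk1, next to Meg3 but read from the other parental copy, was not shown to vary with them. Its r with Meg3 was 0.33 (rho 0.31, adjusted permutation p = 0.220) and 0.05 for deviations from the group means. No pair with Dlk1 passed the threshold.

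Zdbf2 (chromosome 1) and Peg3 (chromosome 7) had r = 0.82 (rho 0.81, adjusted permutation p = 0.000337) and 0.74 for deviations from the group means. Zdbf2 and Meg3 had r = 0.75 (rho 0.80, adjusted permutation p = 0.000975), and Peg3 and Meg3 r = 0.55 (rho 0.56, adjusted permutation p = 0.0338), the last lost without female control replicate 5 (r = 0.50), male control replicate 1 (0.51) or male control replicate 3 (0.45). Zdbf2, Peg3 and Meg3 are the genes whose start windows held TGACGTCA. Zdbf2 also passed with Rian (r = 0.68, adjusted permutation p = 0.00591) and Mirg (r = 0.62, adjusted permutation p = 0.0143), whose windows did not hold it. Peg3 did not pass with Rian (r = 0.37) or Mirg (r = 0.44). The motif and the correlation are 2 separate descriptions, and a link between them was not tested.

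Ndn and Impact made a separate pair, with r = 0.78 (rho 0.66, adjusted permutation p = 0.00054) and 0.72 for deviations from the group means. The sign was positive in 3 groups and negative in male controls, the group where Ndn spanned only 221 to 241 CPM. Ndn and Meg3 had r = −0.14 (rho −0.10, adjusted permutation p = 0.602). Snrpn was negatively related to 4 genes: r was −0.65 with Nnat, −0.64 with Impact, −0.58 with Peg3 and −0.57 with Zdbf2. For deviations from the group means these were −0.65, −0.56, −0.37 and −0.39. Within male controls r was positive with Impact (0.48) and Peg3 (0.56) and negative with Nnat (−0.36) and Zdbf2 (−0.02). The relations with Peg3 and Zdbf2 were lost without male control replicate 1 (r = −0.54 and −0.50). None of the 4 passed in the 14 libraries with low Rn45s, where r was −0.42, −0.62, −0.52 and −0.48. Snrpn also had the fewest counts of the 10. Ndn and Snrpn lie in the same imprinted region, and their r was −0.51 (adjusted permutation p = 0.0544), which did not pass.

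The libraries fall into 14 with low and 6 with high Rn45s, so r was also taken within each set. In the 14 the values were 0.86 for Meg3 and Mirg, 0.88 for Meg3 and Rian, 0.82 for Meg3 and Zdbf2, 0.82 for Peg3 and Zdbf2 and 0.72 for Ndn and Impact; in the 6 they were 0.98, 0.69, 0.42, 0.58 and 0.92. With only the 14 libraries 8 of the 45 pairs passed. Nnat with Ndn (r = 0.54 over all libraries) lost its call in 9 of 20 fits that left out a library, the most of the pairs that passed. In the 14, however, the r of Nnat with Ndn was higher, at 0.74. Nnat with Rian (r = 0.54 over all libraries) had r = −0.25 in the 14. Meg3 itself ranged from 4427 to 10386 CPM in the 14 (median 7312) and from 3550 to 7871 CPM in the 6 (median 5197). Within the 14, no member's relation to Rn45s passed (r = −0.50 for Meg3, rho −0.53, adjusted permutation p = 0.574 over 10 relations). Without the 2 libraries farthest in Rn45s the r of Meg3 was −0.24, while that of Dlk1 went from −0.39 to −0.83. Within the 6, r with Rn45s ran from −0.68 (Rian) to 0.94 (Ndn), with Impact at 0.88, and no p is given.

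**Figure D3:**
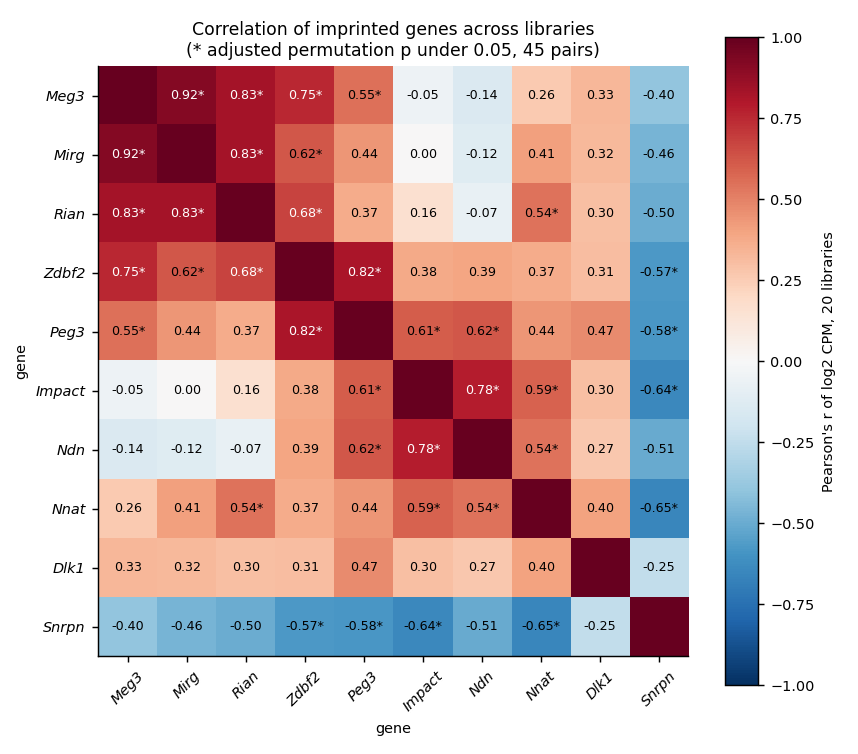
Pearson's r of log2 CPM over the 20 libraries for each pair of the 10 genes, from −1 (blue) to 1 (red), with a star for an adjusted permutation p under 0.05 among 45 pairs. Meg3, Rian and Mirg form a block with r from 0.83 to 0.92, and Snrpn is the gene with negative values that passed.

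Compared with all 12987 other genes, the closest in pattern to Meg3 were not its chromosome 12 neighbours. By Pearson's r over the 20 libraries the 5 most like it were Snhg11 (0.98), a neuronal noncoding RNA, Pnisr (0.97), Snrnp70 (0.97), a protein of the U1 splicing particle, Ttc14 (0.97) and Leng8 (0.97). In the 14 libraries with low Rn45s their r was between 0.95 and 0.98. Mirg came at rank 65 and Rian at rank 326, while the nuclear noncoding RNAs Malat1 (r = 0.78) and Neat1 (r = 0.62) came at ranks 509 and 1193. No p is given, since these were picked from all genes for likeness.

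Among the 35 other imprinted genes, 8 had a correlation with Meg3 that passed (adjusted over 70 relations, with Meg3 and with Ndn). The share of all genes that would pass with Meg3 or with Ndn was not computed. Snhg14, the long noncoding RNA of the Prader-Willi region that hosts small nucleolar RNAs, had r = 0.96 (rho 0.96, adjusted permutation p = 0.00035). Rtl1, a paternal gene of the Dlk1-Dio3 domain, had r = 0.86 (rho 0.90), Kcnq1ot1, an antisense noncoding RNA that silences its neighbours, 0.84 (rho 0.83), Zim1 0.75, Magel2 0.66 and Atp10a 0.61. Peg13 (−0.60) and Zrsr1 (−0.59) were negative. Rtl1 is annotated opposite a transcript of the maternal strand and the strand setting of the counting is not stated, so its reads may include the antisense RNA. Dio3 (0.22) and Begain (0.30), also of chromosome 12, did not pass.

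Ndn had 8 other partners: Gnas with r = 0.81, Nap1l5 0.79, Kcnk9 0.76, Usp29 0.76, Grb10 0.73, Blcap 0.69, Peg10 0.64 and Plagl1 0.63 (rho from 0.60 to 0.73). The adjusted permutation p was 0.00035 for Gnas, the gene of a stimulatory G-protein subunit, and 0.0131 for Plagl1, a zinc-finger growth regulator. No gene passed with both Meg3 and Ndn. Without the 2 libraries farthest from the median of Ndn, r was 0.69 for Gnas and 0.43 for Peg10.

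**Figure D4:**
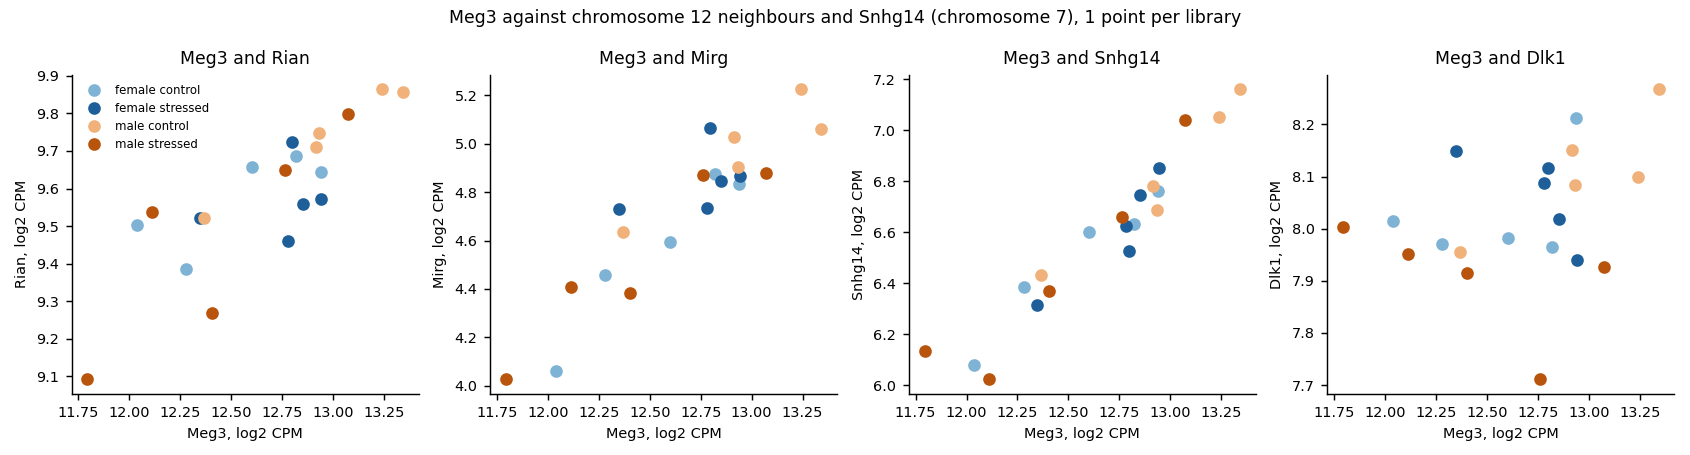
Log2 CPM of Rian, Mirg, Snhg14 and Dlk1 (y axes) against log2 CPM of Meg3 (x axes), with 1 point per library coloured by group. The points follow a line for Snhg14 (r = 0.96) and Mirg (r = 0.92) and scatter for Dlk1 (r = 0.33).

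The members also varied with markers of the cell types a dissection of this region can hold. Among 100 relations of the 10 genes with 9 marker scores and library size, 21 passed (permutation test of Pearson's r, adjusted over 100). None of those was with library size. The share that would pass among all genes was not computed. The striatal score had r = −0.85 with Impact (rho −0.82, adjusted permutation p = 0.000667), −0.83 with Peg3, −0.73 with Nnat, −0.71 with Ndn and −0.64 with Zdbf2, and r = 0.77 with Snrpn. For Impact the value was −0.84 for deviations from the group means, −0.83 in the 14 libraries with low Rn45s and −0.81 in the other 6. Meg3 had r = −0.36 with that score (rho −0.38, adjusted permutation p = 0.251), which did not pass.

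Ndn, Peg3 and Impact had positive relations with markers of the neighbouring hypothalamus (r = 0.79, 0.71 and 0.70), for which 6 of 13 listed genes were in the table. Its peptide genes were low, with Oxt at 2.03 to 28.2 CPM and Trh at 4.27 to 18.1 CPM, and Avp, Hcrt, Pmch, Agrp and Pomc were not in the table analysed. The same 3 genes were also related to the choroid plexus list (0.79, 0.63 and 0.77), of which 5 of 10 genes were in the table. Its defining genes Ttr and Folr1 were not among them, and Enpp2, at 197 to 393 CPM, is also an oligodendrocyte gene. Microglial markers were negatively related to Zdbf2 (r = −0.69), Meg3 (−0.65), Peg3 (−0.62) and Mirg (−0.61), and positively to Snrpn (0.62). Mirg was related to the oligodendrocyte score (−0.58) and Snrpn to the endothelial one (0.67). For deviations from the group means, r of Snrpn was 0.38 with the microglial and 0.38 with the endothelial score. The other microglial relations were then −0.71 (Zdbf2), −0.65 (Meg3), −0.49 (Peg3) and −0.54 (Mirg). The general neuron score passed with Peg3 (r = 0.60) and Impact (0.59, adjusted permutation p = 0.0287 for both), and its r with Meg3 was 0.06, which did not pass. Meg3 and the oligodendrocyte score had r = −0.52 (rho −0.55, adjusted permutation p = 0.0825), which did not pass. With the astrocyte score, r was −0.44 for Meg3 and −0.43 for Mirg (adjusted permutation p = 0.147 and 0.16), which did not pass. By rho these 2 did pass (−0.63 and −0.66, adjusted permutation p = 0.0209 and 0.0147). The neuron score did not pass by rho with Peg3 or Impact (adjusted permutation p = 0.0588 and 0.0563). The part of cell makeup in any of these relations was not tested.

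**Figure D5:**
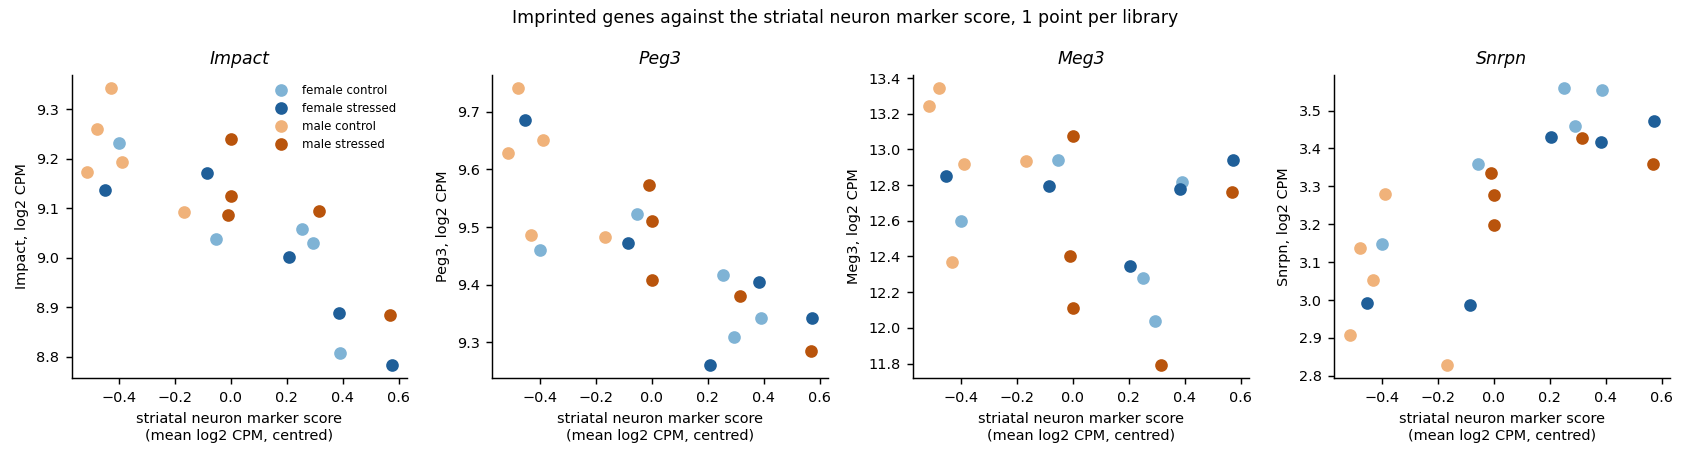
Log2 CPM of Impact, Peg3, Meg3 and Snrpn (y axes) against the striatal marker score (x axes, mean log2 CPM of 14 markers, centred), with 1 point per library coloured by group. Impact (r = −0.85) and Peg3 (r = −0.83) decline along the score, Snrpn (r = 0.77) goes the other way, and the male controls hold scores of −0.515 to −0.167.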

How the data were processed

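RNA of 20 libraries, each from the pooled tissue of 3 mice, was sequenced after a stranded mRNA library preparation, per the labels' protocols. The authors deposited whole-number counts per gene symbol, made with STAR and featureCounts on mm10 per the submitters' processing notes; versions, the annotation and the strand setting used in counting are not given in the sources used here. The lowest row total of the 12988 genes was 1002. Total counts per library, 2707881 to 33595388, set the precision, and low counts such as those of Snrpn carry more counting error.

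Counts were fitted with edgeR 4.0.16 in R 4.3.3 (TMM factors, filterByExpr, which kept all 12988 genes, a mean for each of 4 groups, quasi-likelihood test, two-sided) over all 20 libraries, with Benjamini-Hochberg adjustment over all genes and calls at adjusted p under 0.05. Levels are CPM with TMM factors, log2 CPM used a prior count of 2, and exon lengths came from GENCODE M21 (found for 98.5% of genes). Correlations used 100000 permutations, for which 1e-05 is the smallest p they can give. Promoter and microRNA sequences came from RefSeq (GRCm38.p6). The fit was tested on simulated data.

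The members and lists were chosen with earlier results of these data known. Named were all members, other listed genes that were called or else the 3 with the smallest p in a comparison, the 5 genes most like Meg3, and genes ranking first in a library; others named beside them were picked after their values were seen. Alternatives were DESeq2 1.42.0, its size factors, other filters, a block on replicate number, marker scores as covariates, fits of only the groups compared, levels without TMM factors, leaving out each library and, chosen after seeing the data, leaving out the 6 libraries with Rn45s over 2000 CPM. The p-values of the fits set a difference between groups against the spread between pools of mice. Permutations for the correlations shuffled libraries over all 4 groups, so differences between groups enter those p-values.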

Additional observations from a re-analysis of the deposited data

Results flagged for a closer look

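Among 40 sets of 5 libraries (10 genes in 4 groups), 1 library stood apart by Dixon's criterion for 5 samples (0.71). Dlk1 was at 297 CPM in female control replicate 2, while the other female controls were between 249.7 and 259 CPM, so that its gap to the nearest of them was 0.809 of the whole range. Chance alone flags about 1 in 20 such sets.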

How the results depend on the processing

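Over the alternatives and the 20 fits that left out 1 library, 0 members were called in any comparison, except that Impact was called between the sexes in controls with the oligodendrocyte covariate (1 member). The count of other listed imprinted genes called, 0 as reported, was 1 for stress in males with DESeq2 (Peg10, adjusted p = 0.0474), and for sex in controls 2 with the striatal covariate (Calcr and Plagl1), 2 with the oligodendrocyte covariate (Kcnk9 and Grb10) and 1 with only the groups compared (Kcnk9). Correlated pairs numbered 18 as reported, 8 without the libraries high in Rn45s, 25 without TMM factors, and 13 to 22 when 1 library was left out. Calls over all genes in males, 1 as reported, were 217 with DESeq2, 303 with only the groups compared and 15 with the oligodendrocyte covariate; for sex in controls, 97 as reported, they were 248, 304 and 327, and 48 with the replicate block and 19 without the libraries high in Rn45s. The cause of these shifts was not tested.

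Some directions reversed. With the striatal covariate the log2 fold changes in males became 0.0088 (Peg3), 0.20 (Ndn), 0.043 (Nnat), 0.094 (Impact) and −0.013 (Snrpn), those in controls −0.076 (Ndn), −0.087 (Nnat) and −0.0083 (Impact), that in stressed mice 0.011 (Peg3), and the interactions 0.062 (Nnat) and 0.12 (Impact). With the oligodendrocyte covariate Meg3 was at −0.023 and Impact at 0.065 in females, and the interaction of Ndn was −0.049. Without the libraries high in Rn45s the values in females were −0.11 (Meg3), 0.011 (Ndn), 0.048 (Nnat) and 0.070 (Impact), those in stressed mice 0.016 (Meg3), 0.058 (Rian), −0.0059 (Ndn) and −0.018 (Impact), the interaction of Ndn was −0.14, and r was −0.19 for Meg3 and Nnat and −0.25 for Rian and Nnat. Without TMM factors r of Meg3 and Impact was 0.051. The cause was not tested.

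Leaving out 1 library at a time also crossed 0 for some values, whose log2 fold changes then ranged as follows. In females they were Impact from −0.089 to 0.018, Nnat from −0.079 to 0.040, Peg3 from −0.041 to 0.071, Rian from −0.056 to 0.015 and Zdbf2 from −0.069 to 0.0062. In males the range was Ndn from −0.15 to 0.016. Between stressed mice of each sex they were Nnat from −0.12 to 0.0058, Peg3 from −0.051 to 0.062, Rian from −0.16 to 0.0074, Snrpn from −0.051 to 0.092 and Zdbf2 from −0.010 to 0.067. For the interaction it was Ndn from −0.045 to 0.14, and r was Meg3 with Impact from −0.17 to 0.034. The other members kept their direction in those 20 fits.

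The replicate number as a block left 7 members at an unadjusted p under 0.05 in males, 4 in controls, 1 in stressed mice, 4 for the interaction and 0 in females, and ended the call of Zfp57 between the sexes in controls (adjusted p = 0.0784). In this unpaired design 5 of 30 same-numbered pairs of libraries had deviations correlated above 0.1 (−0.473 to 0.237) and 0 of 20 libraries correlated best with their own number. Depth limits Snrpn and Mirg most, with counts down to 31 and 58, and reads shared with overlapping genes cannot be separated. Pools of 3 mice and 5 libraries a group limit all tests; a difference that missed the threshold is not shown to be absent.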
